A study of Mus musculus with 203 samples.

Results

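Transcript levels of 7 genes of the interleukin-17 and interleukin-21 axis were examined in mouse airway and lung parenchyma during chronic exposure to house dust mite (HDM), cigarette smoke and dexamethasone. The genes were chosen by name: the cytokines Il17a, Il17f, Il21 and Il23a, and the receptors Il17ra, Il21r and Il23r. All 7 were found, each once, among the 43346 identifiers of the gene table, and they were followed through its 20 groups of RNA-seq libraries, 101 of them from airway and the others from parenchyma.

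Female Balb/C mice, given as aged 18 to 20 weeks, inhaled HDM extract through the nose on 5 days a week for 3 weeks, and controls received PBS in place of it. At 3 weeks the libraries comprised 10 HDM and 11 PBS airways, and 10 HDM and 12 PBS parenchymas. Other mice went on with HDM or PBS 3 times a week through weeks 4 to 11, were exposed over these 8 weeks to cigarette smoke (CS) or to normal air (AIR), and were given dexamethasone (DEX) or not in the last week. This gave 8 groups of 10 libraries in each tissue at 11 weeks, written PBS.AIR, PBS.CS, HDM.AIR and HDM.CS, each with or without .DEX. Every 11 week comparison of HDM with PBS was made within the same smoke or air exposure unless stated.

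Interleukin-17A and interleukin-17F are related cytokines made by type 17 helper T cells, gamma delta T cells and some innate lymphocytes, as homodimers or as a heterodimer. They act on epithelium and stroma through a receptor of Il17ra and Il17rc chains, and induce chemokines and growth factors that recruit neutrophils. Interleukin-23, of which Il23a encodes the p19 subunit and Il12b the shared p40 subunit, comes from myeloid cells and sustains type 17 lymphocytes that carry Il23r. Interleukin-21, made by follicular helper and type 17 T cells, signals to B and T cells through Il21r and the common gamma chain Il2rg.

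In the GENCODE M21 annotation of GRCm38, Il17a lies on the forward strand at chr1:20730905-20734496 and Il17f on the reverse strand at chr1:20777146-20790617, a gap of 42649 bp. Il21 lies at chr3:37222759-37232636 on the reverse strand, and Il21r at chr7:125603429-125633570 on the forward strand. Il23a is at chr10:128296139-128298752 and Il23r at chr6:67422932-67491855, both on the reverse strand, and Il17ra is at chr6:120463247-120487559 on the forward strand. Each value is a sum over the gene's transcripts. Il21 is overlapped by the antisense gene Gm12534, and whether counting used strand was not given in the sources used here. Gm12534 had 1 to 11 counts in the 3 week HDM airways and 6 to 14 in the parenchyma, while Il21 had at most 306 counts there.

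The 250 bases before the RefSeq start of the 3 cytokine genes whose levels changed most with HDM are shown, 5′ to 3′ on the strand of each gene (GRCm38.p6, chr1:20730655-20730904, chr1:20784271-20784520 and chr3:37232637-37232886). Capitals mark AGGTCA on either strand, the core letters bound by many nuclear receptors.
Il17a: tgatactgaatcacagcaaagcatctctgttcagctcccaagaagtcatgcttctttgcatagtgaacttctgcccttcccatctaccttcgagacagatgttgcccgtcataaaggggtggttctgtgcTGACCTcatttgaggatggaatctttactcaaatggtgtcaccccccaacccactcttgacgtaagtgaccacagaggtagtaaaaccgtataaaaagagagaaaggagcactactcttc
Il17f: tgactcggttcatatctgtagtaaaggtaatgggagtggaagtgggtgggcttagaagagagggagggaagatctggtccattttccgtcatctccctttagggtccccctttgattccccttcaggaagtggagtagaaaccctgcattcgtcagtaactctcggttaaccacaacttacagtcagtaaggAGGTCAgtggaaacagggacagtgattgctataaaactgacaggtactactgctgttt
Il21: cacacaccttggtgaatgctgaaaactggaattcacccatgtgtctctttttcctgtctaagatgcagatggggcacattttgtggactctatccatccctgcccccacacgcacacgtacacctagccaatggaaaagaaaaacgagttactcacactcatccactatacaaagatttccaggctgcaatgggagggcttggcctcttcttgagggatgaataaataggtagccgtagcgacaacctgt
Il17a held 1 match, 120 bases before the start, and Il17f held 1 match, 58 bases before it, while no match lay in this stretch of Il21. The same letters were found once before Il21r and at 2 places before Il23r. Of 32851 RefSeq promoters of this length, 4607 or 14% held a match, so a match alone describes the letters and not a bound site. The RefSeq start of Il17f lies inside the longer gene model of GENCODE M21.

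Library totals ranged from 13003087 to 40240680 counts with a median of 28090612, and the next to lowest total was 18756055. Levels are given as CPM, the count relative to the TMM-scaled library total, and are compared between groups, never between genes. Summed airway wall markers (Myh11, Acta2 and others) had group medians of 230.5 to 770 CPM in airway and 40.5 to 131.8 CPM in parenchyma. Alveolar markers were present in both, at 7750 to 18490 CPM in airway and 12950 to 30140 CPM in parenchyma. Heart and skeletal muscle markers had group medians of up to 1321 CPM in airway and 38.01 CPM in parenchyma, with single libraries at up to 3748 CPM in airway. The HDM.AIR parenchyma library of replicate 4 was at 1421 CPM, the next highest parenchyma library was at 73.8 CPM, and no call of a member ended when replicate 4 was left out. The labels name no mouse, and p-values measure the spread between libraries. A library of the 3 week PBS airway group (replicate 2) and one of the 11 week PBS.AIR parenchyma group (replicate 7) had Il17a far above the rest of their group, and the library with the lowest total was HDM.AIR.DEX parenchyma replicate 2. Several results that rest on them are given also without these 3 libraries. In whole tissue, fewer cells of a type and less RNA per cell cannot be told apart.

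Several genes sat near the count floor. Il23a had at most 36 counts in any library, and its group median was under 10 counts in 17 of 20 groups. Il21 had a median under 10 counts in 10 groups, Il17f in 9 and Il17a in 7, with PBS groups making up all of these. At 11 weeks Il21 reached no more than 3 counts in any PBS.AIR.DEX or PBS.CS.DEX parenchyma library, and Il17f no more than 3 in any PBS.AIR.DEX airway library. Il21r, Il23r and Il17ra had no group median under 10 counts.

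The groups were ranked by mean log2 CPM for each gene. Il17a was highest in HDM.AIR parenchyma, Il17f in HDM.CS parenchyma, Il21 and Il21r in 3 week HDM airway, Il23a in HDM.CS.DEX airway, and Il23r and Il17ra in 3 week HDM parenchyma. Most neighbours in these orders did not differ beyond their spread. Of 19 steps down the order, the drop exceeded the larger SD at 1 step for Il17a, 2 for Il17f, 3 for Il21, 1 each for Il21r and Il17ra, and none for Il23a or Il23r. For Il17a that single step separated all HDM groups, which held the first 10 ranks, from all PBS groups. Il17f and Il21 also had all HDM groups above all PBS groups in mean level, whereas Il21r did not: PBS.CS airway ranked 7 of 20.

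**Figure D1:**
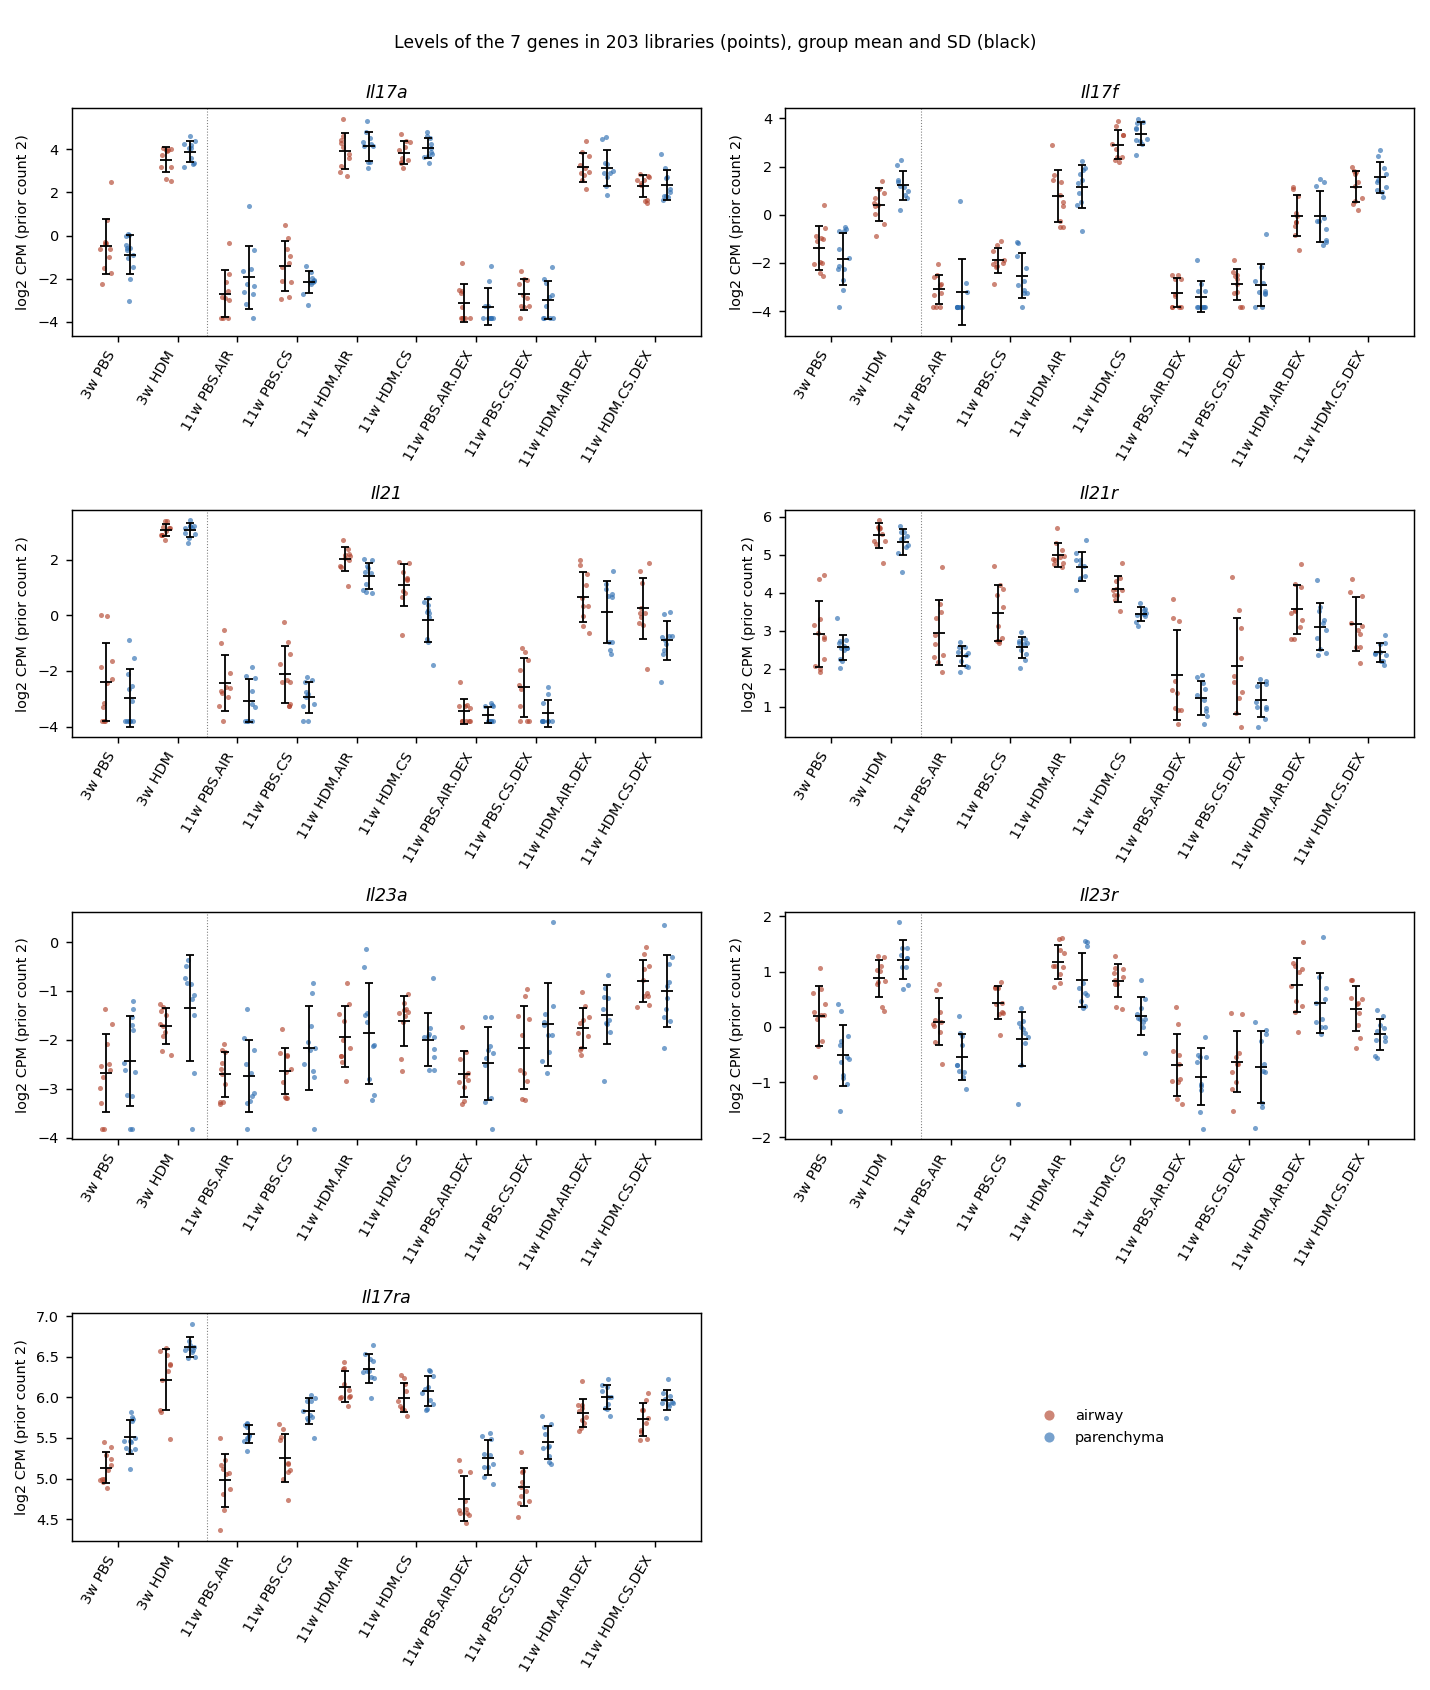
Level of each of the 7 genes in every library. The vertical axis is log2 CPM (prior count 2), the horizontal axis the exposure group, red points are airway and blue points parenchyma libraries, and black marks give the group mean and SD. Il17a, Il17f and Il21 are high in HDM groups, Il17f is highest in HDM.CS, and Il21 and Il21r are highest at 3 weeks.

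The first comparison asked how the axis differed between HDM-exposed mice and PBS controls after 3 weeks. Il17a, Il17f, Il21 and Il21r were upregulated in both tissues, Il17ra rose about as much in each, and Il23r rose more in parenchyma than in airway. A gene was called when its Benjamini-Hochberg adjusted p over all genes tested was under 0.05 and its log2 fold change (log2FC) was at least 1 in size. Of 6 members tested, 5 were called higher in airway and 5 in parenchyma, where 12.1% and 14.5% of all genes were called higher. Il23a was under the count filter at this time.

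Il17a ranged from 5.76 to 16.6 CPM with a median of 14.0 in HDM airways, and from 0.141 to 5.51 with a median of 0.583 in PBS airways. In parenchyma it ranged from 8.96 to 23.9 CPM (median 16.4) after HDM and from 0.0514 to 0.967 (median 0.579) after PBS. The groups did not overlap in either tissue. The log2FC was 4.06 ± 0.42 (SE) in airway (limma-voom, adjusted p = 1.89e-11) and 4.82 ± 0.47 in parenchyma (adjusted p = 2.44e-12). Without the 3 libraries, the airway value was 4.43.

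Its neighbour Il17f changed less. Airway levels ran from 0.477 to 2.56 CPM (median 1.30) with HDM and from 0.0992 to 1.26 (median 0.400) with PBS, and parenchymal levels from 1.09 to 4.72 (median 2.199) against 0 to 0.629 (median 0.189). The airway groups overlapped, with 6 of 10 HDM values exceeding every PBS value, and the parenchyma groups did not. Il17f rose by 1.92 ± 0.40 on the log2 scale in airway (adjusted p = 4.07e-05) and by 3.26 ± 0.43 in parenchyma (adjusted p = 5.58e-09). The highest PBS airway value came from replicate 2, with 46 counts. In fits that left out 1 library the airway value was 1.77 to 2.14.

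Il21 changed most of the 7 genes at this time. HDM airways held 6.47 to 10.6 CPM with a median of 8.43, against 0 to 0.929 with a median of 0.117 in PBS airways. HDM parenchymas held 5.99 to 10.6 CPM with a median of 8.81, against 0 to 0.472 with a median of 0.0230. The groups were fully apart in both tissues, and the spread within the HDM groups was narrow (SD of log2 CPM 0.23 and 0.24). The log2FC was 6.18 ± 0.45 in airway (adjusted p = 8.27e-16) and 6.94 ± 0.50 in parenchyma (adjusted p = 3.33e-16).

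Its receptor Il21r ranged from 27.6 to 59.9 CPM (median 49.2) in HDM airways and from 3.70 to 21.9 (median 7.07) in PBS airways. The corresponding parenchymal values were 23.5 to 54.3 (median 43.04) and 3.96 to 10.0 (median 5.79). Neither pair of groups overlapped. The log2FC was 2.52 ± 0.21 in airway (adjusted p = 2.85e-14) and 2.66 ± 0.23 in parenchyma (adjusted p = 9.13e-14).

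Il17ra, the shared receptor chain of interleukin-17A and F, was at 44.9 to 97.3 CPM (median 81.9) in HDM airways against 29.6 to 43.7 (median 34.4) in PBS airways, and at 89.3 to 119.7 (median 96.6) against 34.8 to 56.5 (median 43.96) in parenchyma. HDM and PBS libraries did not overlap. It rose by 1.02 ± 0.10 in airway (adjusted p = 8.05e-12) and by 0.98 ± 0.10 in parenchyma (adjusted p = 9.86e-12), the latter just under the fold limit. The airway call ended in 4 of 21 fits that left out 1 library, with values of 0.98 to 1.10.

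Il23r had 1.15 to 2.35 CPM (median 1.82) in HDM airways and 0.463 to 2.03 (median 1.09) in PBS airways. In parenchyma it had 1.53 to 3.65 CPM (median 2.29) after HDM and 0.276 to 1.26 (median 0.606) after PBS. The airway groups overlapped and the parenchymal groups did not. The log2FC of 0.65 ± 0.19 in airway (adjusted p = 0.00272) was smaller than that of 1.70 ± 0.22 in parenchyma (adjusted p = 3.23e-09). The difference between these effects, airway less parenchyma, was -1.05 ± 0.29 (adjusted p = 0.0109). Il23r was the only one of 6 members called for this difference, where 2.21% of genes were. Its call ended in 6 of 43 fits that left out 1 library, with log2 values of -1.17 to -0.95, and without the 3 libraries.

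T cell markers rose with these genes, and so did markers of other cell types. Of 10 T cell markers, 9 were called higher with HDM in airway and 9 in parenchyma at 3 weeks, with a median log2FC of 1.49 and 1.70 beside -0.07 and -0.13 over all genes. Their summed level was 186.1 to 414.9 CPM in HDM airways against 64.2 to 248.6 in PBS airways, and 222.6 to 489.6 against 82.8 to 136.6 in parenchyma, and none had a group median of 0. Gamma delta T cell markers were called higher for 4 of 8 tested genes in airway and 5 of 8 in parenchyma, with summed levels of 41.3 to 53.1 against 36.4 to 49.8 CPM and 44.2 to 59.8 against 33.5 to 55.2 CPM. Neutrophil markers were called higher for 8 of 8 genes in each tissue, and B cell markers for 5 of 7 in airway and 3 of 7 in parenchyma. Macrophage and dendritic cell markers were each called higher for 4 of 8 in each tissue, with 2 macrophage markers lower in airway. Of all genes, 12.1% and 14.5% were called higher. The part of any of these cell types in the results was not tested.

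After 11 weeks of HDM without smoke, the axis was higher again than in PBS.AIR controls, and here Il23a could also be tested. All 7 members were called higher in airway and 6 in parenchyma, where 10.6% and 13% of all genes were. Il17ra in parenchyma rose by 0.84 ± 0.09 (adjusted p = 1.47e-14), under the fold limit.

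Il17a stood at 6.61 to 42.3 CPM (median 15.2) in HDM.AIR airways against 0 to 0.714 (median 0.0674) in PBS.AIR airways. The parenchyma held 8.62 to 39.3 CPM (median 18.0) against 0 to 2.51 (median 0.134), with the top of the control range set by replicate 7. No libraries overlapped. The log2FC was 7.64 ± 0.79 in airway (adjusted p = 3.36e-16) and 6.65 ± 0.66 in parenchyma (adjusted p = 3.54e-17), or 7.06 in parenchyma without the 3 libraries.

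Il17f ran from 0.639 to 7.41 CPM (median 1.53) in HDM.AIR airways against 0 to 0.168 (median 0.0474) in PBS.AIR airways, and from 0.557 to 4.596 (median 2.56) in HDM.AIR parenchymas against 0 to 1.40 in PBS.AIR, where the control median was 0. The airway groups did not overlap, and in parenchyma 7 of 10 HDM.AIR libraries lay above all controls. It rose by 5.03 ± 0.67 in airway (adjusted p = 3.80e-11) and by 5.92 ± 0.73 in parenchyma (adjusted p = 1.13e-12), or by 6.48 without the 3 libraries.

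Il21 in HDM.AIR was at 2.01 to 6.44 CPM (median 4.24) in airway and 1.69 to 4.03 (median 2.85) in parenchyma. PBS.AIR airways held 0 to 0.630 CPM (median 0.0882) and PBS.AIR parenchymas 0 to 0.206 (median 0.0352). Neither tissue showed overlap, with log2FC of 5.15 ± 0.50 (adjusted p = 7.12e-18) and 5.58 ± 0.61 (adjusted p = 5.49e-15). The highest 11 week airway value, 6.44, lay below the lowest at 3 weeks, 6.47. Weeks were not tested against each other.

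Il21r ran from 25.4 to 52.5 CPM (median 30.1) in HDM.AIR airways against 3.70 to 25.6 (median 6.75) in PBS.AIR, and from 16.7 to 41.99 (median 26.2) against 3.68 to 6.46 (median 5.13) in parenchyma. One PBS.AIR airway, replicate 4, reached into the HDM.AIR range with 25.6 CPM, and the parenchyma groups did not overlap. The log2FC was 2.09 ± 0.23 (adjusted p = 8.38e-15) and 2.40 ± 0.27 (adjusted p = 1.61e-14).

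Il23r rose by 1.14 ± 0.19 in airway (adjusted p = 5.59e-08) and 1.49 ± 0.22 in parenchyma (adjusted p = 1.77e-09). Its levels were 1.58 to 2.98 CPM (median 2.07) in HDM.AIR airway and 1.198 to 2.88 (median 1.505) in HDM.AIR parenchyma, against 0.554 to 1.64 (median 0.978) and 0.388 to 1.07 (median 0.550) in PBS.AIR. Airway groups overlapped at 1 library of 10, and parenchyma groups did not overlap. Il17ra rose in airway by 1.17 ± 0.09 (adjusted p = 7.38e-23), from 20.5 to 45.2 CPM in PBS.AIR to 59.6 to 86.2 in HDM.AIR, with no overlap.

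Il23a, at 2 to 13 counts in HDM.AIR airways and 1 to 6 in PBS.AIR airways, had a log2FC of 1.13 ± 0.44 (adjusted p = 0.0216). In parenchyma, with 1 to 23 counts against 0 to 9, the value was 1.25 ± 0.46 (adjusted p = 0.0128). Both comparisons overlapped, and at these counts each call was lost when particular single libraries were left out (2 of 20 in airway and 1 of 20 in parenchyma). T cell markers were called higher for 8 of 10 genes in airway and 9 of 10 in parenchyma, with sums of 190.2 to 417.4 against 64.7 to 296.3 CPM and 172.9 to 358.4 against 78.96 to 106.1 CPM. Gamma delta markers were called higher for 8 of 9 genes in each tissue, with 1 (Sox13) lower in parenchyma, by 1.15 ± 0.12. Their median log2FC was 2.22 in airway and 2.61 in parenchyma. Their sums were 57.2 to 101.6 CPM (median 73.5) against 38.04 to 81.3 (median 58.8) in airway. In parenchyma they were 49.9 to 121.4 (median 78.1) against 74.3 to 110.5 (median 87.8), lower in median with HDM. A sum weights each gene by its level, so it can fall while most of its genes rise. Neutrophil markers were called higher for 6 of 8 genes in each tissue, and B cell markers for 7 of 7 in airway and 6 of 7 in parenchyma. Macrophage markers were called higher for 5 and 3 of 8, with 1 lower in airway, and dendritic cell markers for 4 and 5 of 8. The part of any of these cell types in the results was not tested.

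Cigarette smoke was compared first without HDM. No member was called in PBS.CS against PBS.AIR by limma-voom in either tissue, where 2.78% of all genes in airway and 5.33% in parenchyma were called. At an unadjusted p under 0.05 there were 4 of 7 members in airway and 1 in parenchyma. Il17a ran from 0.0584 to 1.33 CPM (median 0.317) in PBS.CS airways and gave 1.98 ± 0.95 (adjusted p = 0.166), and Il17f ran from 0.0648 to 0.398 (median 0.184) and gave 2.01 ± 0.76 (adjusted p = 0.0623). Both edgeR and DESeq2 called these 2 genes higher in airway. In parenchyma DESeq2 called Il17a lower and edgeR called none, while the limma-voom value of Il17a was -0.10 ± 0.92 (adjusted p = 0.948) and turned to 0.31 without the 3 libraries. Il17ra alone passed the adjusted p in both tissues, rising by 0.27 ± 0.10 in airway (adjusted p = 0.0415) and 0.28 ± 0.09 in parenchyma (adjusted p = 0.0108), under the fold limit.

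Smoke added to HDM separated the 2 interleukin-17 genes. Il17f rose more than 3-fold in both tissues, Il17a was not called in either, and Il21, Il21r and, in parenchyma, Il23r and Il17ra fell. In airway 1 of 7 members was called and in parenchyma 3 of 7, where 2.64% and 4.36% of genes were called in either direction.

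Il17f held 4.46 to 14.7 CPM (median 7.12) in HDM.CS airways, beside the 0.639 to 7.41 of HDM.AIR airways. HDM.CS parenchymas held 5.46 to 15.8 CPM (median 10.2), beside 0.557 to 4.596 in HDM.AIR. In parenchyma all 10 HDM.CS libraries lay above all HDM.AIR libraries, and in airway 5 of 10 did. Mean levels were 3.71-fold and 4.25-fold higher, with log2FC of 2.17 ± 0.27 (adjusted p = 2.98e-10) and 2.19 ± 0.25 (adjusted p = 3.27e-12). All 8 other settings that kept Il17f called this rise in both tissues, with log2FC of 1.87 to 2.52 in airway and 2.06 to 2.36 in parenchyma.

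Il17a held 8.58 to 25.99 CPM (median 13.7) in HDM.CS airways and 10.2 to 27.9 (median 15.4) in HDM.CS parenchymas. These ranges lay inside those of the HDM.AIR groups. The log2FC was -0.09 with a 95% interval of -0.49 to 0.32 in airway (adjusted p = 0.830) and -0.10 with an interval of -0.50 to 0.29 in parenchyma (adjusted p = 0.767). Sample quality weights turned both signs, to 0.19 and 0.05.

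The 2 genes were then set against each other within each library, a comparison chosen after their levels were seen. In HDM.AIR there were 12.6 Il17f counts per 100 Il17a counts in airway and 13.1 in parenchyma, near the 11.5 and 15.5 of the 3 week HDM groups. In HDM.CS there were 54.4 and 61.04. The log2 ratio ran from -3.82 to -2.51 (median -3.25) in HDM.AIR airways and from -1.25 to -0.26 (median -1.07) in HDM.CS airways. In parenchyma it ran from -4.19 to -2.30 (median -2.84) and from -1.27 to -0.38 (median -0.63). Every HDM.CS library lay above every HDM.AIR library in both tissues. The difference was 2.25 ± 0.17 (SE) in airway and 2.30 ± 0.19 in parenchyma, with p = 2e-05 in each by a two-sided permutation test of 100000 resamples, the smallest p it could give, and 6e-05 adjusted over 6 comparisons. As both counts come from the same library, this ratio does not depend on the scaling between libraries.

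**Figure D2:**
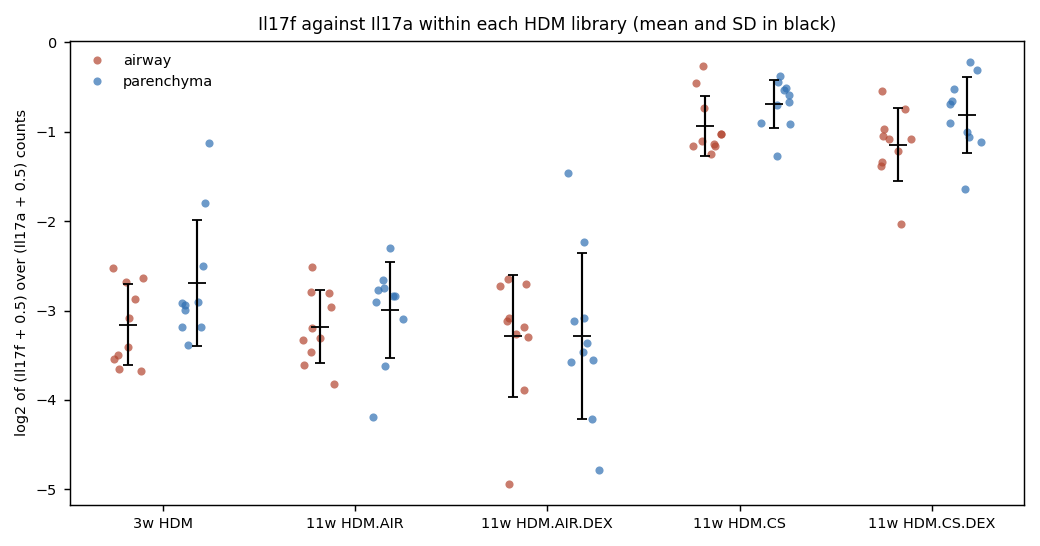
Il17f against Il17a within each HDM library. The vertical axis is the log2 ratio of counts with 0.5 added to each, points are libraries (red airway, blue parenchyma), and black marks are the group mean and SD. All HDM.CS libraries lie above all HDM.AIR libraries, and the groups given dexamethasone sit at the level of their own smoke or air group.

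Il21 fell with smoke in HDM mice. HDM.CS airways held 0.538 to 3.72 CPM (median 2.38) and HDM.CS parenchymas 0.220 to 1.46 (median 1.00). All 10 HDM.CS parenchymas lay below all HDM.AIR parenchymas, and 4 of 10 airways below all HDM.AIR airways. The log2FC was -0.99 ± 0.25 in airway (adjusted p = 0.00203), just short of the fold limit, and -1.70 ± 0.33 in parenchyma (adjusted p = 2.23e-05).

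Il21r followed the same direction. It stood at 11.4 to 27.5 CPM (median 16.7) in HDM.CS airways and 8.63 to 13.2 (median 10.8) in HDM.CS parenchymas. The parenchyma groups did not overlap, and 9 of 10 HDM.CS airways lay below all HDM.AIR airways. It fell by 0.94 ± 0.19 in airway (adjusted p = 0.00011) and by 1.26 ± 0.22 in parenchyma (adjusted p = 2.32e-06).

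Il23r fell by 0.68 ± 0.20 in parenchyma (adjusted p = 0.00537), from 1.198 to 2.88 CPM in HDM.AIR to 0.649 to 1.72 in HDM.CS, and had -0.37 ± 0.17 in airway (adjusted p = 0.123). Il17ra fell by 0.29 ± 0.09 in parenchyma (adjusted p = 0.0143) and had -0.16 ± 0.09 in airway (adjusted p = 0.262). Il23a had 0.37 ± 0.38 in airway (adjusted p = 0.573) and -0.13 ± 0.40 in parenchyma (adjusted p = 0.859), with 3 to 11 and 3 to 13 counts in HDM.CS.

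Whether smoke acted differently with and without HDM was tested as an interaction, the log2FC of smoke in HDM mice less that in PBS mice. It was -1.48 ± 0.32 for Il21r in airway (adjusted p = 0.000262) and -1.49 ± 0.39 in parenchyma (adjusted p = 0.000951). For Il23r it was -0.75 ± 0.26 (adjusted p = 0.033) and -1.02 ± 0.31 (adjusted p = 0.00623), and for Il17ra -0.43 ± 0.13 (adjusted p = 0.0139) and -0.57 ± 0.13 (adjusted p = 0.000196). Of 7 members, 1 passed both limits in airway and 2 in parenchyma, where 5.17% and 10.5% of genes did. The parenchymal Il23r call ended in 15 of 40 fits that left out 1 library, with values of -1.17 to -0.93. Il17f had 0.16 ± 0.81 in airway (adjusted p = 0.920) and 0.74 ± 0.91 in parenchyma (adjusted p = 0.563), against few counts in the PBS groups. Il17a did not pass the adjusted p in airway, where its HDM effect was 7.64 in air and 5.58 with smoke in both arms. In parenchyma its interaction was -0.0014 (adjusted p = 0.9992). edgeR and DESeq2 each called 2 members in airway. Il21 had -1.48 ± 0.69 (adjusted p = 0.118) and -1.97 ± 0.87 (adjusted p = 0.0648).

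Summed T cell markers were lower in median in HDM.CS than in HDM.AIR too. Their sum was 131.7 to 273.4 CPM against 190.2 to 417.4 in airway and at most 170.9 against at least 172.9 in parenchyma. The median log2FC of the 10 markers was -0.60 in airway and -0.76 in parenchyma, where 1 was called lower. Gamma delta markers were called lower for 2 of 9 genes in airway and 6 of 9 in parenchyma, with sums of 50.5 to 75.03 against 57.2 to 101.6 CPM and 54.7 to 74.2 against 49.9 to 121.4 CPM. Both marker sums were lower in median in HDM.CS. B cell markers were called lower for 0 of 7 genes in airway and 3 of 7 in parenchyma, beside 359 and 631 of all 18250 genes. Their sums in HDM.CS and HDM.AIR were 175.3 to 511.3 against 326.7 to 670.3 CPM in airway. In parenchyma they were 138.6 to 222.7 against 274.9 to 476.1 CPM, with no overlap. Of 8 dendritic cell markers, 2 were called lower in each tissue. The part of any of these cell types in the rise of Il17f or in the falls of Il21, Il21r and Il23r was not tested.

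Il21r and the summed T cell markers ran together across libraries. Trac, the constant segment of the T cell receptor alpha chain, was among the 5 genes of 18370 whose group means ran closest to Il21r. Its r was 0.99 over 20 group means and 0.89 over all libraries after the group means were subtracted. Spib (0.98 and 0.85) and Ctse (0.98 and 0.84) were also among these 5. The points share their libraries and scaling, and the values are descriptions. In PBS.AIR airway replicate 4, which had the highest Il21r of its group at 25.6 CPM, the T cell sum was 296.3 CPM and the B cell sum 431.7 CPM, also the highest of that group.

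**Figure D3:**
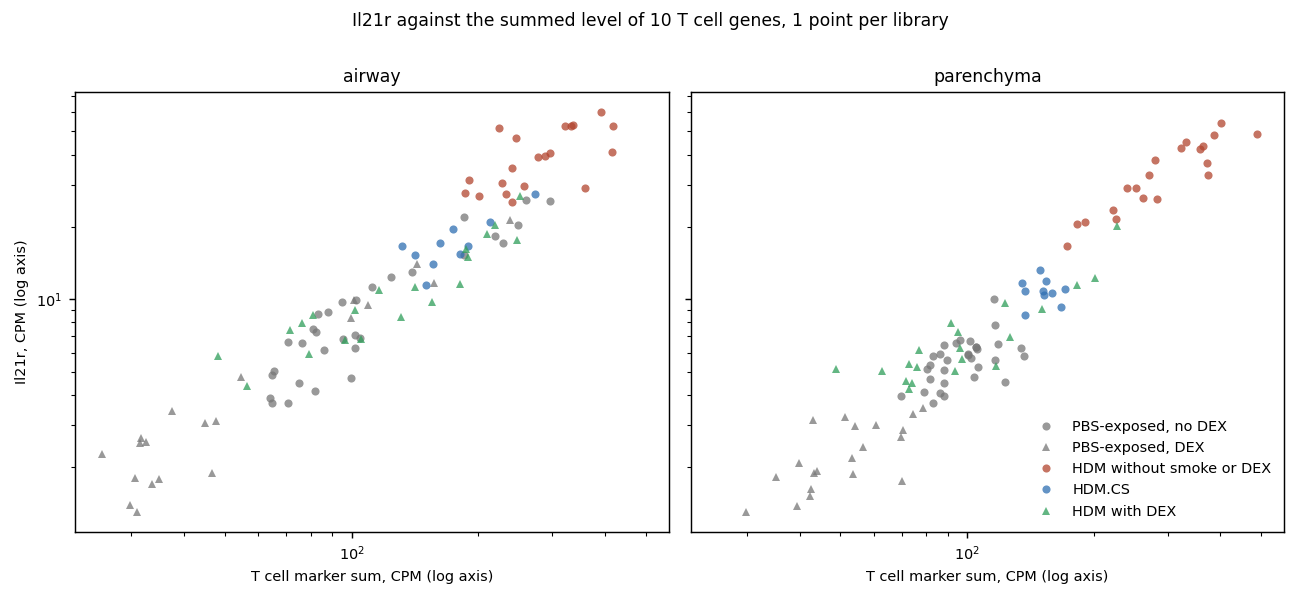
Il21r against summed T cell markers. Each point is a library, with the level of Il21r on the vertical axis and the sum of 10 T cell markers on the horizontal axis, both in CPM on log scales. Control airways with a high T cell sum also have a high Il21r.

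Set against PBS.AIR, HDM plus smoke left 6 of 7 members called higher in airway and 5 in parenchyma, where 7.33% and 8.67% of genes were. Il17f had log2FC of 7.20 ± 0.64 in airway (adjusted p = 8.18e-20) and 8.11 ± 0.70 in parenchyma (adjusted p = 2.43e-20), or 8.67 in parenchyma without the 3 libraries. Il17a had 7.55 ± 0.79 and 6.55 ± 0.66, Il21 4.16 ± 0.51 and 3.89 ± 0.64, and Il21r 1.14 ± 0.24 and 1.14 ± 0.29. Il23a was called at 1.49 ± 0.42 and 1.12 ± 0.46, the latter lost in 5 of 20 fits that left out 1 library and without the 3 libraries (adjusted p = 0.0542). Il17ra had 1.01 ± 0.09 in airway, a call that ended in 7 of 20 fits that left out 1 library (values of 0.94 to 1.07), and 0.55 ± 0.09 in parenchyma, and Il23r had 0.77 ± 0.19 and 0.81 ± 0.23. HDM.AIR and HDM.CS share these PBS.AIR controls.

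With smoke in both arms, HDM.CS against PBS.CS, 4 members were called higher in airway (Il17a 5.58 ± 0.56, Il17f 5.19 ± 0.46, Il21 3.67 ± 0.47 and Il23a 1.33 ± 0.42) and 3 in parenchyma (Il17a 6.65 ± 0.67, Il17f 6.66 ± 0.56 and Il21 3.62 ± 0.62). Of all genes, 3.9% and 2.71% were called higher. Il21r rose by 0.61 ± 0.22 in airway (adjusted p = 0.0237) and 0.91 ± 0.28 in parenchyma (adjusted p = 0.0195), and Il17ra by 0.74 ± 0.09 (adjusted p = 3.76e-11) and 0.27 ± 0.09 (adjusted p = 0.0476).

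**Figure D4:**
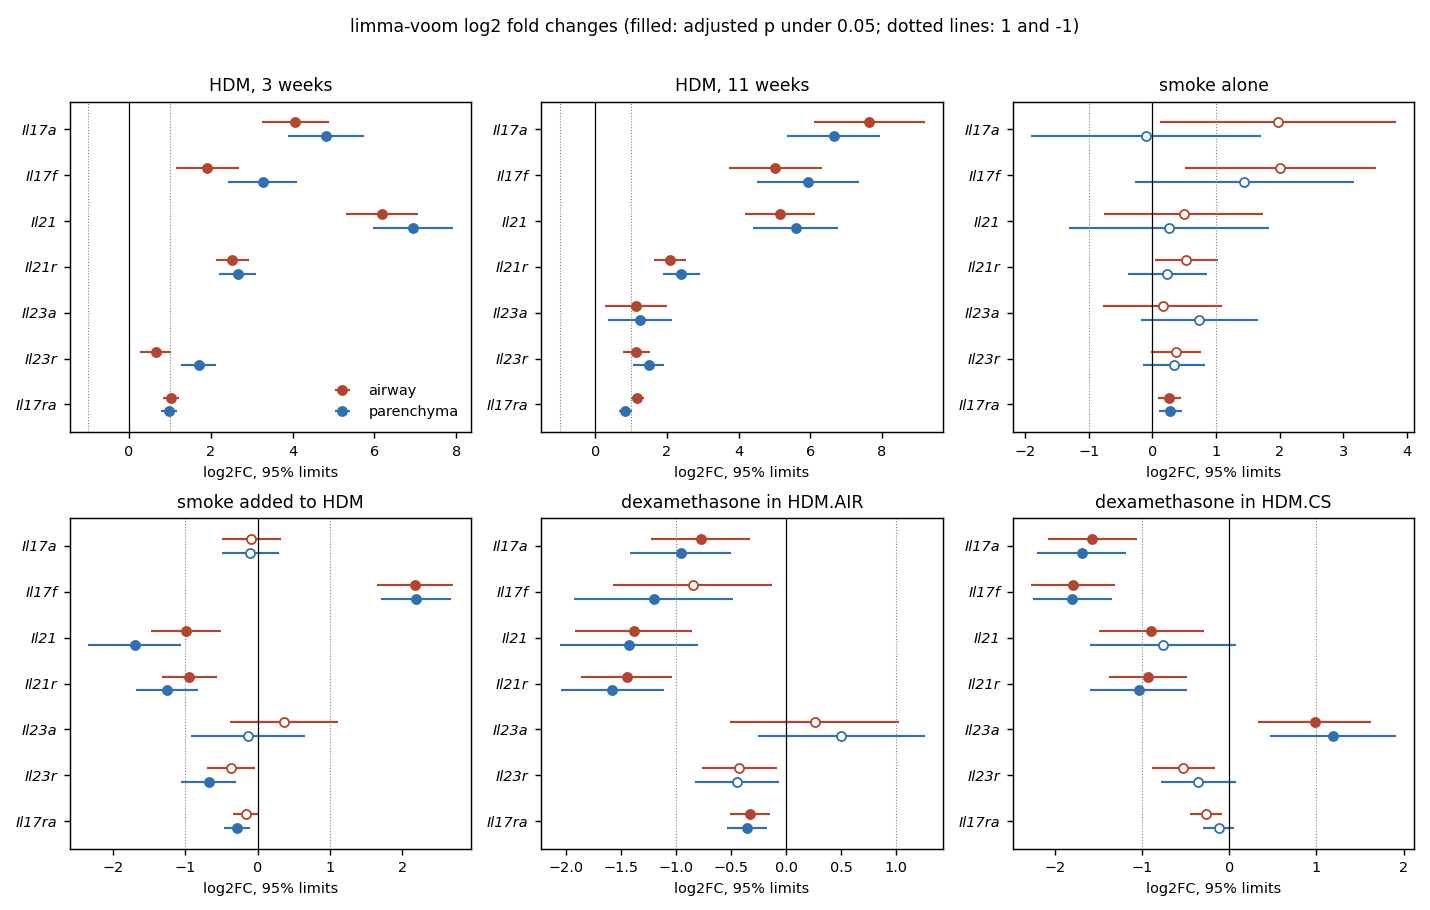
Log2 fold changes of the 7 genes with 95% intervals in the main comparisons. Each panel is a comparison and the horizontal axis is log2FC, with airway in red and parenchyma in blue. HDM raises Il17a, Il17f and Il21 most, and smoke added to HDM raises Il17f and lowers Il21 and Il21r. With dexamethasone in HDM groups Il17a and Il21r lie below 0. Il23a lies above 0 with dexamethasone in HDM.CS, while its intervals in HDM.AIR cross 0.

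Dexamethasone, a glucocorticoid, was given in the last week, and its groups were compared with the same exposure without it. In HDM.AIR mice Il21r and Il21 fell most, and Il17a fell by less than the fold limit. In HDM.CS mice Il17a and Il17f fell most. Called lower were 2 of 7 members in HDM.AIR airway and 3 in parenchyma (5.07% and 5.4% of all genes), and 2 in HDM.CS airway and 3 in parenchyma (1.93% and 1.92%).

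Il17a in HDM.AIR.DEX was at 4.35 to 20.9 CPM (median 8.05) in airway and 3.61 to 23.1 (median 7.67) in parenchyma, overlapping HDM.AIR in both. It fell by 0.77 ± 0.23 (adjusted p = 0.00562) and by 0.96 ± 0.23 (adjusted p = 0.000643). In HDM.CS.DEX it was at 2.79 to 7.02 CPM (median 5.55) in airway and 3.08 to 13.4 (median 4.16) in parenchyma. No airway library overlapped HDM.CS, and 9 of 10 parenchymas lay below all of HDM.CS. The fall was 1.57 ± 0.26 (adjusted p = 2.15e-06) in airway and 1.69 ± 0.26 (adjusted p = 5.87e-07) in parenchyma.

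Il17f had 0.286 to 2.16 CPM (median 0.810) in HDM.AIR.DEX airway and 0.342 to 2.69 (median 0.756) in parenchyma. The log2FC was -0.85 ± 0.37 in airway (adjusted p = 0.0716) and -1.20 ± 0.37 in parenchyma (adjusted p = 0.00757), with overlap in both. In HDM.CS.DEX it had 1.09 to 3.87 CPM (median 2.35) in airway, below every HDM.CS library, and 1.62 to 6.45 (median 2.58) in parenchyma, with 9 of 10 below all HDM.CS libraries. It fell by 1.79 ± 0.25 (adjusted p = 1.31e-08) and by 1.80 ± 0.23 (adjusted p = 9.03e-10). The HDM.CS.DEX and HDM.AIR ranges overlapped in both tissues.

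The ratio of Il17f to Il17a moved little with dexamethasone. There were 11.1 and 11.6 Il17f counts per 100 Il17a counts in HDM.AIR.DEX airway and parenchyma, and 47.5 and 55.97 in HDM.CS.DEX. The log2 ratio differed from the groups without the drug by -0.10 ± 0.25 and -0.29 ± 0.34 in HDM.AIR (permutation p = 0.711 and 0.416), and by -0.21 ± 0.17 and -0.12 ± 0.16 in HDM.CS (permutation p = 0.225 and 0.460). These differences were smaller than the spread between libraries.

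Il21 in HDM.AIR.DEX was at 0.573 to 3.89 CPM (median 1.33) in airway and 0.309 to 2.96 (median 1.53) in parenchyma. It fell by 1.39 ± 0.27 (adjusted p = 1.55e-05) and 1.43 ± 0.32 (adjusted p = 0.000194), with 6 and 7 of 10 libraries below all of HDM.AIR. In HDM.CS.DEX it was at 0.192 to 3.63 CPM (median 0.981) in airway and 0.119 to 1.02 (median 0.491) in parenchyma. The airway fall was 0.89 ± 0.31 (adjusted p = 0.0457), and in parenchyma the log2FC was -0.76 ± 0.42 (adjusted p = 0.327).

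Il21r had 6.76 to 27 CPM (median 11.1) in HDM.AIR.DEX airway and 5.02 to 20.2 (median 8.54) in parenchyma, with 9 of 10 libraries below all of HDM.AIR in each. It fell by 1.45 ± 0.21 (adjusted p = 5.34e-09) and 1.58 ± 0.24 (adjusted p = 2.42e-08). In HDM.CS.DEX, at 4.35 to 20.4 CPM (median 8.28) and 4.22 to 7.32 (median 5.17), the fall was 0.93 ± 0.23 in airway (adjusted p = 0.00244) and 1.04 ± 0.28 in parenchyma (adjusted p = 0.00979), where the groups did not overlap. Il21r was also called lower in PBS mice, by 1.13 ± 0.31 and 1.11 ± 0.38 in PBS.AIR and by 1.39 ± 0.29 and 1.39 ± 0.37 in PBS.CS. It was the only member called in PBS.AIR, and Il23r in PBS.CS airway (fell by 1.11 ± 0.22, adjusted p = 0.000124) was the only other one in PBS mice. The shares of all genes called lower were 1.85% and 2.14% in PBS.AIR, and 2.29% and 2.39% in PBS.CS. The PBS.AIR airway call was lost in 2 of 20 fits that left out 1 library, with values from -1.34 to -0.92.

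Il17ra fell by 0.33 ± 0.09 (adjusted p = 0.00328) and 0.35 ± 0.09 (adjusted p = 0.00164) in HDM.AIR airway and parenchyma, and had -0.27 ± 0.09 (adjusted p = 0.0502) and -0.12 ± 0.09 (adjusted p = 0.527) in HDM.CS. Il23r had -0.42 ± 0.17 (adjusted p = 0.0543) and -0.45 ± 0.19 (adjusted p = 0.0706) in HDM.AIR, and -0.53 ± 0.19 (adjusted p = 0.0551) and -0.35 ± 0.22 (adjusted p = 0.398) in HDM.CS.

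Il23a was the one member that rose with dexamethasone. HDM.CS.DEX airways held 9 to 29 counts against 3 to 11 in HDM.CS, and parenchymas 4 to 33 against 3 to 13. The groups overlapped. It rose by 0.98 ± 0.33 in airway (adjusted p = 0.0418) and was called in parenchyma at 1.19 ± 0.37 (adjusted p = 0.0263), where 0.115% of genes were called higher. The parenchymal call was lost in 3 of 20 fits that left out 1 library. In HDM.AIR the values were 0.26 ± 0.39 (adjusted p = 0.680) and 0.50 ± 0.39 (adjusted p = 0.362). Its partner Il12b, the p40 subunit, fell by 3.36 ± 0.39 and 2.91 ± 0.37 in HDM.AIR and by 1.70 ± 0.34 and 2.36 ± 0.36 in HDM.CS, each with an adjusted p of 9.51e-05 or less. Il12b was at few counts with the drug, at most 17 and 28 in HDM.AIR.DEX airway and parenchyma, and 18 and 14 in HDM.CS.DEX. Its HDM.AIR parenchyma groups overlapped, and the other pairs did not.

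The larger falls of Il17a and Il17f in HDM.CS than in HDM.AIR did not pass a test of the difference, also chosen after the values were seen. The dexamethasone effect in HDM.CS less that in HDM.AIR was -0.80 ± 0.35 for Il17a in airway (adjusted p = 0.344) and -0.73 ± 0.35 in parenchyma (adjusted p = 0.221), and -0.94 ± 0.44 (adjusted p = 0.407) and -0.60 ± 0.43 (adjusted p = 0.478) for Il17f. With limma-voom 0 of 7 members passed in either tissue, where 0.115% and 1.57% of genes were called, and 2 in airway and 1 in parenchyma had an unadjusted p under 0.05. edgeR and DESeq2 also called 0.

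T cell markers fell with dexamethasone, with 3 of 10 called lower in HDM.AIR airway, 6 in HDM.AIR parenchyma, 2 in HDM.CS airway and 7 in HDM.CS parenchyma. Their sum was 96.4 to 251.5 CPM and 91.4 to 226.7 CPM in HDM.AIR.DEX airway and parenchyma, and 48.04 to 219.2 and 48.8 to 96.4 in HDM.CS.DEX. The 9 gamma delta markers had median log2FC of 0.08 and 0.04 in HDM.AIR airway and parenchyma, and of -0.88 and -1.04 in HDM.CS, where 3 were called lower in parenchyma. Their summed levels with the drug were 64.02 to 163.4 and 63.97 to 163.2 CPM in HDM.AIR.DEX, and 46.9 to 69.3 and 45.7 to 62.95 in HDM.CS.DEX.

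B cell markers were called lower for 6 of 7 genes in HDM.AIR in both tissues and 5 of 7 in HDM.CS in both. Their median log2FC was -1.28 and -1.41 in HDM.AIR airway and parenchyma, and -1.01 and -1.33 in HDM.CS. Their summed levels were 107.2 to 317.0 CPM in HDM.AIR.DEX airway against 326.7 to 670.3 in HDM.AIR, and 65.1 to 231.8 against 274.9 to 476.1 in parenchyma. In HDM.CS.DEX they were 88.9 to 289.9 against 175.3 to 511.3 in HDM.CS airway, and 57.5 to 157.4 against 138.6 to 222.7 in parenchyma. The HDM.AIR pairs did not overlap, and the HDM.CS pairs did. Of 8 dendritic cell markers, 6 and 7 were called lower in HDM.AIR airway and parenchyma and 5 and 7 in HDM.CS, with medians of -1.15, -1.34, -1.31 and -1.46. The part of T, gamma delta T, B or dendritic cells in the falls of the members was not tested.

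Airway and parenchyma were compared within each exposure. Il21 was higher in airway in HDM.CS by 1.31 ± 0.33 (adjusted p = 0.00202) and in HDM.CS.DEX by 1.18 ± 0.40 (adjusted p = 0.0262), and it was the only member called in any of the 10 exposures by limma-voom. In those exposures 5.1% and 6.03% of genes were called in either direction. In the other 8 exposures 0 members were called, with 1 to 3 at an unadjusted p under 0.05, beside 11.9% of genes in 3 week PBS, 8.61% in 3 week HDM, 16.1% in PBS.AIR, 13.9% in PBS.AIR.DEX, 12.4% in PBS.CS, 12.7% in PBS.CS.DEX, 3.04% in HDM.AIR and 3.39% in HDM.AIR.DEX. DESeq2 and edgeR called up to 3 members in the 11 week PBS exposures, and 0 in the rest of these 8. The HDM.CS.DEX call was lost in 3 of 20 fits that left out 1 library.

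Smaller tissue differences passed the adjusted p. Il17ra was lower in airway in the 5 PBS exposures, by 0.42 ± 0.10 at 3 weeks (adjusted p = 0.000424) and by 0.48 to 0.57 at 11 weeks, and in 3 week HDM by 0.38 ± 0.10 (adjusted p = 0.00406). Il23r was higher in airway by 0.72 ± 0.23 in 3 week PBS, 0.68 ± 0.23 in PBS.AIR, 0.71 ± 0.22 in PBS.CS and 0.64 ± 0.19 in HDM.CS. Il21r was higher in airway by 0.93 ± 0.28 in PBS.CS, 0.63 ± 0.22 in HDM.CS and 0.93 ± 0.38 in PBS.CS.DEX. Il17f was lower in airway by 0.79 ± 0.29 in 3 week HDM (adjusted p = 0.0301).

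The members' pathway was followed in gene lists. Of 25 genes known to be induced by interleukin-17, 24 were tested. With HDM, 20 in airway and 21 in parenchyma were called higher at 3 weeks, and 20 and 22 at 11 weeks, with median log2FC of 1.91, 2.77, 2.03 and 2.5 beside -0.07, -0.13, 0.00 and 0.05 over all genes. With smoke alone, where limma-voom called neither Il17a nor Il17f but edgeR and DESeq2 called both higher in airway, limma-voom called 13 and 20 of these genes higher (medians 1.21 and 2.14). Smoke added to HDM, where Il17f rose, called 0 higher and 1 lower in each tissue. The largest rises were Muc5ac, an airway mucin, in 3 week airway (4.39 ± 0.42) and Saa3, an acute phase protein, in 3 week parenchyma (5.28 ± 0.33). With smoke alone Cxcl5, a neutrophil chemokine, rose most, by 3.45 ± 0.52 in airway and 4.80 ± 0.58 in parenchyma, and with smoke added to HDM it had 0.20 ± 0.40 and 0.33 ± 0.40 (adjusted p = 0.797 and 0.609). S100a8 and S100a9 of this list are also neutrophil markers, whose sum was 142.5 to 584.8 CPM in PBS.CS airways against 55.97 to 398.9 in PBS.AIR, and 332.4 to 832.5 against 158.9 to 625.6 in parenchyma. Other stimuli induce these genes too.

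Dexamethasone called 4 and 6 of the 24 target genes lower in HDM.AIR airway and parenchyma, beside 5.07% and 5.4% of all genes. In HDM.CS, where Il17a and Il17f fell most, it called 1 in airway and 0 in parenchyma, beside 1.93% and 1.92% of all genes. The list's median log2FC was -0.32 and -0.49 in HDM.AIR, and -0.14 and 0.16 in HDM.CS.

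Among 16 genes of the type 17 lineage, 15 were tested. HDM called 7 higher in airway and 6 in parenchyma at 3 weeks, with Ccr6, the receptor for Ccl20 on type 17 cells, rising most (3.29 ± 0.27 and 3.74 ± 0.34), and 6 in each tissue at 11 weeks, with Irf4 rising most (2.77 ± 0.18 and 2.89 ± 0.21). Il22, a further type 17 cytokine, was under the filter and had at most 12 counts in any library.

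Of 10 partners of interleukin-23, HDM called 5 and 6 higher at 3 weeks and 4 in each tissue at 11 weeks. The shares of all genes called higher were 12.1% and 14.5% at 3 weeks, and 10.6% and 13% at 11 weeks. Il12b rose by 2.33 ± 0.31 and 4.34 ± 0.40 at 3 weeks, and by 1.74 ± 0.30 and 2.49 ± 0.34 at 11 weeks. In controls it had at most 39 and 7 counts in 3 week PBS airway and parenchyma, and 49 and 19 in PBS.AIR. It also rose with smoke alone, by 2.21 ± 0.29 and 2.28 ± 0.34, a setting in which Il23a had 0.16 ± 0.48 and 0.74 ± 0.47 (adjusted p = 0.887 and 0.224). The shared receptor chain Il12rb1 rose with HDM by 1.74 ± 0.21 and 2.18 ± 0.23 at 3 weeks and by 1.91 ± 0.20 and 1.89 ± 0.21 at 11 weeks.

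Il17d and Il17rd of the interleukin-17 family fell with HDM at 3 weeks, and at 11 weeks Il17rb rose. Of 13 such genes 10 were tested, and HDM called 0 higher and 2 lower in each tissue at 3 weeks. Among all 17377 genes, 2056 in airway and 2627 in parenchyma were called lower then. Il17d fell by 2.41 ± 0.15 in airway (adjusted p = 1.75e-17) and 2.17 ± 0.14 in parenchyma (adjusted p = 1.05e-17), and the receptor gene Il17rd by 1.02 ± 0.14 and 1.43 ± 0.13. At 11 weeks Il17rb, Il17rd and Il17d passed the adjusted p in airway under the fold limit (0.86 ± 0.22, -0.79 ± 0.17 and -0.71 ± 0.15). In parenchyma Il17rb rose by 1.12 ± 0.30, Il17rd fell by 1.45 ± 0.16, and Il17d fell by 0.69 ± 0.15, under the fold limit. Il17rc, the partner chain of Il17ra, fell by 0.21 ± 0.09 at 3 weeks (adjusted p = 0.046) and by 0.29 ± 0.11 at 11 weeks (adjusted p = 0.0142) in airway, in the same libraries in which Il17ra rose. The adaptor Traf3ip2 fell by 0.29 ± 0.06 and 0.42 ± 0.07 at 3 weeks.

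Genes of interleukin-21 signalling and follicular help rose with HDM. At 11 weeks 14 of 18 were called higher in airway and 12 in parenchyma, beside 10.6% and 13% of all genes. At 3 weeks 14 of 19 were called higher in airway and 12 in parenchyma, where 1 (Il2) fell, beside 12.1% and 14.5% of all genes. The common gamma chain Il2rg rose by 1.78 ± 0.16 and 2.17 ± 0.16. Smoke added to HDM called 2 of 18 lower in airway and 5 in parenchyma, beside 359 and 631 of all 18250 genes. Dexamethasone called 6 and 8 lower in HDM.AIR, beside 5.07% and 5.4% of all genes, and 4 and 7 in HDM.CS, beside 1.93% and 1.92%.

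The genes whose 20 group means ran closest to each member were found among 18370 genes. For Il17a these were led by Ighv1-62-2, an immunoglobulin heavy chain segment (r = 0.98 over group means, 0.34 over libraries after the group means were subtracted). Il17f was closest to Gm26614 (0.94 and 0.32) and to Il17a (0.94 and 0.59). Il21 was closest to Ighv1-2 (0.98 and 0.42) and to Pdcd1, a receptor of activated and follicular helper T cells (0.98 and 0.47). Il21r was closest to Ptpn22, a lymphocyte phosphatase (0.99 and 0.78), and Il23r to Cd3e, a T cell receptor chain (0.97 and 0.42). Il17ra ran with Fes (0.99 and 0.69), and Il23a with Gm15401 at only 0.88 and 0.17. Group means share libraries and scaling, and these values are descriptions.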

How the data were processed

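RNA-seq was carried out on airway and parenchyma of mice, and the authors deposited a table of estimated counts per Ensembl gene. Per the labels, processing used bcl2fastq 2.20.0.422, STAR 2.5.1b, RSEM 1.2.31 and kallisto 0.44.0 on mm10, and which of these made the table was not given in the sources used here. Of nonzero values 20.3% were not whole, and all were rounded. A total of 42462 of 43346 identifiers matched a mouse symbol. Groups were read from the labels. The members and gene lists were chosen with earlier results of these data known.

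Genes were kept at the CPM equivalent of 10 counts in at least 9 libraries. Main tests used limma-voom (limma 3.58.1, R 4.3.3) on TMM factors (edgeR 4.0.16), fitted to 43 libraries and 17377 genes at 3 weeks and to 160 libraries and 18250 genes at 11 weeks, with Benjamini-Hochberg adjustment over all genes tested. Log2 levels had a prior count of 2. Errors are SE unless named SD. Alternatives were edgeR quasi-likelihood tests, DESeq2 1.42.0, its size factors, other filters, sample quality weights, other sets of libraries in the fit, and leaving out each library. The fit without the 3 named libraries, a fit with adjacent sample codes as a block (limma's duplicateCorrelation), the ratio of Il17f to Il17a and the test of dexamethasone by smoke were chosen after seeing the data. The scripts were tested on simulated data. Of 931 pairs of replicates the lowest chi-square per degree of freedom was 8.49, and all pairs differed beyond sampling noise. Depth sets the precision of Il23a and of Il17a, Il17f and Il21 in PBS groups, where 1 count is a large step. Named genes were all 7 members, partners fixed by name (Il22, Ccr6, Ccl20, Il12b, Il12rb1, Il17rc, Traf3ip2, Il2rg), and, of each list, the called genes with the largest rise and fall in the HDM and smoke comparisons, except that some genes these rules name are not reported here. Promoter sequences are from RefSeq, with entries for 5 of 7 members.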

Additional observations from a re-analysis of the deposited data

Results flagged for a closer look

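Over 10 interaction terms the members gave 69 tests, of which 7 had an adjusted p under 0.05 and 4 also reached the fold limit. Smoke in HDM mice less smoke in PBS mice was -0.43 for Il17ra, -1.48 for Il21r and -0.75 for Il23r in airway, and -0.57, -1.49 and -1.02 in parenchyma. For Il23r at 3 weeks the HDM effect in airway less that in parenchyma was -1.05. At the adjusted p alone, 19.1% of all genes passed for HDM by smoke in airway, 36% in parenchyma and 17.3% for HDM by tissue at 3 weeks. The Il17ra values and the airway Il23r value were under the fold limit.

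Dixon's test was run for each of the 7 members in each of the 18 groups of 10 libraries. In 9 of these sets of 1 member in 1 group a library lay far from the rest, and chance marks about 1 set in 20. Most of these rest on few counts. Il17a in 11 week PBS.AIR.DEX airway reached 0.346 CPM (12 counts) in replicate 8, beside a median of 0.0152. Il17f reached 1.40 CPM (34 counts) in PBS.AIR parenchyma replicate 7 and 0.204 CPM (6 counts) in PBS.AIR.DEX parenchyma replicate 2, in groups whose median was 0. Il21 reached 0.120 CPM (4 counts) in PBS.AIR.DEX airway replicate 5. Il23a reached 0.527 CPM (13 counts) in HDM.CS parenchyma replicate 7 and 1.26 CPM (36 counts) in PBS.CS.DEX parenchyma replicate 6.

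At higher counts, Il21 was low in HDM.CS airway replicate 3, at 0.538 CPM beside a median of 2.38. Il17ra was high in 3 week HDM parenchyma replicate 4, at 119.7 CPM beside 96.6, and in HDM.AIR.DEX airway replicate 4, at 73.5 CPM beside 55.5.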

How the results depend on the processing

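The sample codes run in adjacent pairs of an airway and a parenchyma library of the same exposure, and the labels do not say whether such a pair is 1 mouse. Across genes, deviations from the group means correlated within the pairs at a median of 0.18 over 21 pairs at 3 weeks (lowest -0.22) and 0.29 over 80 pairs at 11 weeks (lowest 0.022), above 0.1 in 15 and 73 of them. Of the airway libraries, 13 of 21 and 64 of 80 correlated best with their own code, a hint from the data and not the design. A fit with this replicate block, added after seeing the data, changed the members called in 1 of 40 comparisons, airway against parenchyma in PBS.CS.DEX, where it called 1 (Il21) and the fit without it 0.

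The counts of members called depended most on the filter. When 9 libraries had to reach a CPM of 10, just 3 members could be tested, and the counts called, airway then parenchyma, were 3 and 3 for HDM at 3 weeks, 3 and 2 for HDM at 11 weeks, 2 and 2 for HDM plus smoke, 1 and 1 for HDM added to smoke, 0 and 1 for smoke added to HDM, 1 and 1 for dexamethasone in HDM.AIR, and 1 and 2 in HDM.CS. It left 1 for dexamethasone in PBS.CS airway, 0 in PBS.AIR parenchyma, 1 for HDM by smoke in parenchyma, 0 for HDM by tissue at 3 weeks, and 0 between tissues in HDM.CS and HDM.CS.DEX. The lower counts follow from the fewer members tested.

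DESeq2 and edgeR called 2 and 2 for HDM by smoke in airway, 2 and 2 for smoke alone in airway, 1 and 1 for smoke alone by tissue, and 4 and 2 for dexamethasone in PBS.AIR parenchyma. Between tissues they called 3 and 1 in PBS.AIR, 1 and 1 in PBS.AIR.DEX, 3 and 3 in PBS.CS, and 2 and 2 in PBS.CS.DEX. DESeq2 also called 1 for smoke alone in parenchyma and 1 for dexamethasone by HDM in parenchyma. Sample quality weights gave 5 for dexamethasone in HDM.CS airway, 2 in PBS.AIR parenchyma, 1 between tissues in PBS.CS, 0 in HDM.CS.DEX, and 0 for HDM by tissue at 3 weeks. With no filter there were 2 for dexamethasone in PBS.AIR airway and 2 in parenchyma, 1 between tissues in PBS.CS.DEX and 0 in HDM.CS.DEX. One fit of all libraries gave 1 for HDM by smoke in parenchyma, and the fit without the 3 named libraries gave 0 for HDM by tissue. Leaving out 1 library in turn gave at lowest 1 for HDM by smoke in parenchyma and 0 for HDM by tissue at 3 weeks, for the tissues in HDM.CS.DEX and for dexamethasone in PBS.AIR airway, where the highest counts were those reported. The cause of these changes was not tested.

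Signs turned only in results that limma-voom did not call. Il17a in HDM by smoke in parenchyma, -0.00 as reported, was 1.09 with edgeR, 1.14 with DESeq2, 0.0033 with DESeq2 size factors, 0.25 with quality weights, 0.039 in one fit of all libraries, 0.0080 with the replicate block and 0.013 with each tissue fitted apart. With quality weights Il17a for smoke added to HDM was 0.19 in airway and 0.049 in parenchyma, and Il23r for dexamethasone by smoke in parenchyma was -0.0032. Without the 3 libraries Il17a for smoke alone in parenchyma was 0.31. With edgeR and DESeq2, Il17f was -0.031 and -0.10 for HDM by smoke in airway and -0.087 and -0.12 for smoke alone in parenchyma, and Il21 was -0.0088 and -0.0074 there. Another scaling moved the all-gene median by under 0.1.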
